A study of Mus musculus with 15 samples.

Results

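The genes described here are 8 chemokine receptor and adhesion genes that hold progenitors and neutrophils in the bone marrow or release them under G-CSF: Cxcr2, Cxcr4, Itga4, Itgb1, Itgal, Itgb2, Selplg and Cd44. They were listed by name, with earlier results of these data known, out of 22180 genes with a probe set of a single gene symbol, and each was read from the probe set with the highest mean over all 15 arrays. All 8 were among the 14822 genes that passed a filter on dim signal. On arrays of freshly sorted spleen cells coded GFW, all of these genes had signals well above that filter. After 3 days of culture, 7 of the 8 were lower than on GFW arrays, against 31.9% of all genes tested. The chemokine receptor Cxcr2 was lower than on GFW arrays by far the most, by 7.17 on the log2 scale (SE 0.15, n = 3 arrays a group). Against arrays coded RB, which carried the labels of GFW, Cxcr2 differed by -2.37 log2 and Itga4 by -2.39. The integrin chain Itgb1 stood apart, since its group means spanned 0.40 log2 over all 5 groups. On the arrays labelled iNOS knockout, no gene of the 8 was called lower, and Itgb1 was called higher by 0.40 log2, a call that was lost under 10 of 14 alternative settings (adjusted p up to 0.240).

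The arrays were single-colour Affymetrix arrays of mouse myeloid cells, 3 for each of 5 groups, and values are log2 signals, so that a difference of 1 is a doubling. Spleen cells were taken in 4 groups, all from mice treated with G-CSF, the growth factor used to move marrow cells into the blood, and all sorted as CD11b+CD34+ after removal of cells bearing CD4, CD8, Ly6G, B220 or Ter119. The groups coded RB and GFW carried identical labels, C57Bl/6 mice given G-CSF and no culture, and differed in the code of their titles. The group coded GFE held such cells of G-CSF-treated C57Bl/6 mice after 3 days of culture with Flt3 ligand and SCF in StemSpan medium, and the group coded GFK held uncultured cells of G-CSF-treated mice labelled iNOS knockout, with C57Bl/6 as the strain. The group MDSC held myeloid-derived suppressor cells, Ly6C+CD11b+ cells that had been raised in a dish out of C57Bl/6 marrow with IL-13, G-CSF and GM-CSF added. G-CSF thus reached every group, in the animal for 4 of them and in the culture dish for MDSC, and no array of untreated mice was analysed here. Age, the G-CSF dose and the allele of the knockout are not given in the labels. The labels do not say that the 3 arrays of a group came from separate mice, so p-values measure the spread between these arrays, which may be technical, and the number of arrays limits the precision.

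Bone marrow stroma makes the chemokine CXCL12, and its receptor CXCR4 holds progenitors and neutrophils near that stroma, while CXCR2, the receptor of the neutrophil-drawing CXC chemokines, pulls mature neutrophils towards the blood. Integrins are pairs of an alpha and a beta chain: VLA-4 (Itga4 with Itgb1) binds VCAM-1 and fibronectin, and LFA-1 (Itgal with Itgb2) binds the ICAM proteins. Selplg encodes PSGL-1, the main ligand of P-selectin, and Cd44 encodes a receptor for hyaluronan that can also carry E-selectin ligands. Under G-CSF, CXCL12 in the marrow falls and proteases cut adhesion and retention proteins, so that progenitors and neutrophils leave.

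The arrays held 41345 probe sets with array medians between 5.52 and 5.72 log2, and no pair of arrays was identical. Checks of the labels came first. The targeted gene Nos2 was not lower on arrays labelled iNOS knockout (8.89 ± 0.05, SD, n = 3) than on GFW arrays (8.28 ± 0.17), and whether its probe set lies in the deleted part is not known, so this group is called "arrays labelled iNOS knockout" or GFK. Although the sort removed Ly6G+ cells, Ly6g stood at 12.19 ± 0.03 log2 on GFW arrays and 12.08 ± 0.05 on GFK arrays, against 6.28 ± 0.10 on RB arrays. Cd34, a gene of the sorting gate, stood at 7.19 ± 0.20 on GFW arrays, 5.92 ± 0.11 on RB arrays and 11.28 ± 0.03 after culture. Itgam, which encodes CD11b, was high on GFW (11.67 ± 0.05) and RB arrays (11.38 ± 0.10) and lower after culture (7.94 ± 0.11). RB and GFW arrays thus differed widely under the same labels, with 52.4% of all genes called in either direction. Since RB and MDSC arrays each have a title prefix of their own, the prefix and the group cannot be told apart for them, whereas GFW, GFE and GFK share a prefix.

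Promoter sequences show how unlike these genes are at their starts. The table of RefSeq promoters (build GRCm38.p6) covers 250 bases before to 50 bases after the start, and 5 of the 8 genes were matched in it. The 3 printed are of Cxcr2, the gene with the widest range of group means, of Cxcr4, the other chemokine receptor, and of Itgb1, the gene with the narrowest range. They lie at chr1:74153744-74154043 on the plus strand for Cxcr2, at chr1:128592250-128592549 on the minus strand for Cxcr4 and at chr8:128685404-128685703 on the plus strand for Itgb1. Capitals mark matches on either strand to GAGGAA, the purine-rich core bound by the myeloid factor PU.1, to GGGCGG, the GC box bound by Sp1, and to TATAAA, the TATA box, so that a match on the other strand shows as the reverse complement.
Cxcr2: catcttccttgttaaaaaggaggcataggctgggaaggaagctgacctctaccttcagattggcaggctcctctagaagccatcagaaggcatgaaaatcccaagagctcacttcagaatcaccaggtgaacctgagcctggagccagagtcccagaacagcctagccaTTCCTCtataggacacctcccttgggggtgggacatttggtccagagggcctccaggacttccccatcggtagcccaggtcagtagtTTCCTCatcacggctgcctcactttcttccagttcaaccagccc
Cxcr4: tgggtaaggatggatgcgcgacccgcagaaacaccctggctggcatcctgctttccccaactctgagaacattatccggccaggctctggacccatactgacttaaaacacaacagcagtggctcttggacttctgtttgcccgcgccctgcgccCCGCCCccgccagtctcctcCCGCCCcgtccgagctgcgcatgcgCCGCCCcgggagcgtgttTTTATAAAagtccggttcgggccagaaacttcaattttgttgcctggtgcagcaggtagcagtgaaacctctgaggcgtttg
Itgb1: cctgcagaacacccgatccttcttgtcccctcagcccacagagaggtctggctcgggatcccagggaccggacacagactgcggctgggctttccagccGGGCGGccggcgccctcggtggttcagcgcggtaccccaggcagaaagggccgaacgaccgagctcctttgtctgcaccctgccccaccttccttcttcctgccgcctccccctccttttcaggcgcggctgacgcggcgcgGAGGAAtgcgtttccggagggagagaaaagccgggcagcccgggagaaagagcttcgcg

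The Cxcr2 window held 2 CpG dinucleotides against a median of 7 over 32851 promoters, and 14.1% of promoters had fewer. It held 2 matches to GAGGAA and none to the other motifs. The Cxcr4 window held 20 CpG, 3 matches to GGGCGG and 2 overlapping matches to TATAAA, one on each strand. The Itgb1 window held 27 CpG, more than 84.5% of promoters, with 1 match each to GAGGAA and GGGCGG. Of all promoters in the table, 28.3% held GAGGAA, 35.7% held GGGCGG and 13.6% held TATAAA. Among the remaining matched genes, the Itga4 window had 10 CpG and 1 GGGCGG, and the Cd44 window had 6 CpG, 2 GAGGAA and 1 GGGCGG. A match describes these letters and is not evidence of binding.

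Cxcr2 separated the groups more than any other gene of the 8. Its log2 signal was 12.81, 12.90 and 12.65 on the GFW arrays and 12.75, 12.71 and 12.56 on the GFK arrays. It was 8.49, 8.35 and 8.42 on the MDSC arrays, 7.76, 8.07 and 8.12 on the RB arrays and 5.81, 5.23 and 5.80 on the GFE arrays. The GFW and GFK arrays were high and overlapped each other, the MDSC and RB arrays lay far below them, and the cultured arrays were lowest. The range of group means, 7.17 log2, was wider than that of 99.9% of genes tested. In the bulk RNA of a sorted population, fewer cells of a type and less RNA per cell cannot be told apart, here or for any gene below.

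Cxcr2 was 144-fold lower after culture than on GFW arrays (GFE minus GFW -7.17 log2, SE 0.15, adjusted p = 4.51e-15). Compared with RB, which carried the same labels as GFW, it was 5.17-fold lower (-2.37 log2, adjusted p = 1.55e-09). Changes after culture are given against GFW wherever RB is not named. The cultured arrays were close to the limit of the dim filter, which lay between 5.34 and 5.58 log2, and 1 of the 3 was below it. Against GFW, Cxcr2 was also lower on RB arrays, by 27.9-fold (-4.80 log2, adjusted p = 1.41e-12), and on MDSC arrays, by 20.6-fold (-4.37 log2, adjusted p = 1.84e-12). MDSC and RB lay next to each other in the order of levels and differed by 0.44 log2 (adjusted p = 0.0236), but that call was lost without MDSC array 1 (adjusted p = 0.0743), MDSC array 3 (0.0544) or RB array 1 (0.107). GFK and GFW did not differ beyond their spread (-0.11 log2, 95% interval -0.43 to 0.21, adjusted p = 0.855).

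Cxcr4, the CXCL12 receptor, had the same 2 groups at the top and the cultured cells at the bottom, at a much smaller scale. Its log2 signal was 11.21, 11.26 and 11.35 on GFW arrays and 11.25, 11.32 and 11.46 on GFK arrays. It was 10.50, 10.57 and 10.83 on RB arrays, 10.66, 10.60 and 10.49 on MDSC arrays, and 9.63, 9.82 and 9.84 on GFE arrays. GFW and GFK overlapped at the top, RB and MDSC overlapped in the middle, and the cultured arrays were lowest with no overlap. Cxcr4 fell by 1.51 on the log2 scale after culture (SE 0.11, adjusted p = 7.41e-09), a 2.85-fold difference. It was lower than in GFW by 0.64 log2 in RB (adjusted p = 0.000188) and by 0.69 log2 in MDSC (adjusted p = 6.04e-05). Neither neighbouring pair, GFK with GFW (0.07 log2, 95% interval -0.17 to 0.31) or RB with MDSC (adjusted p = 0.772), differed beyond the spread.

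**Figure D1:**
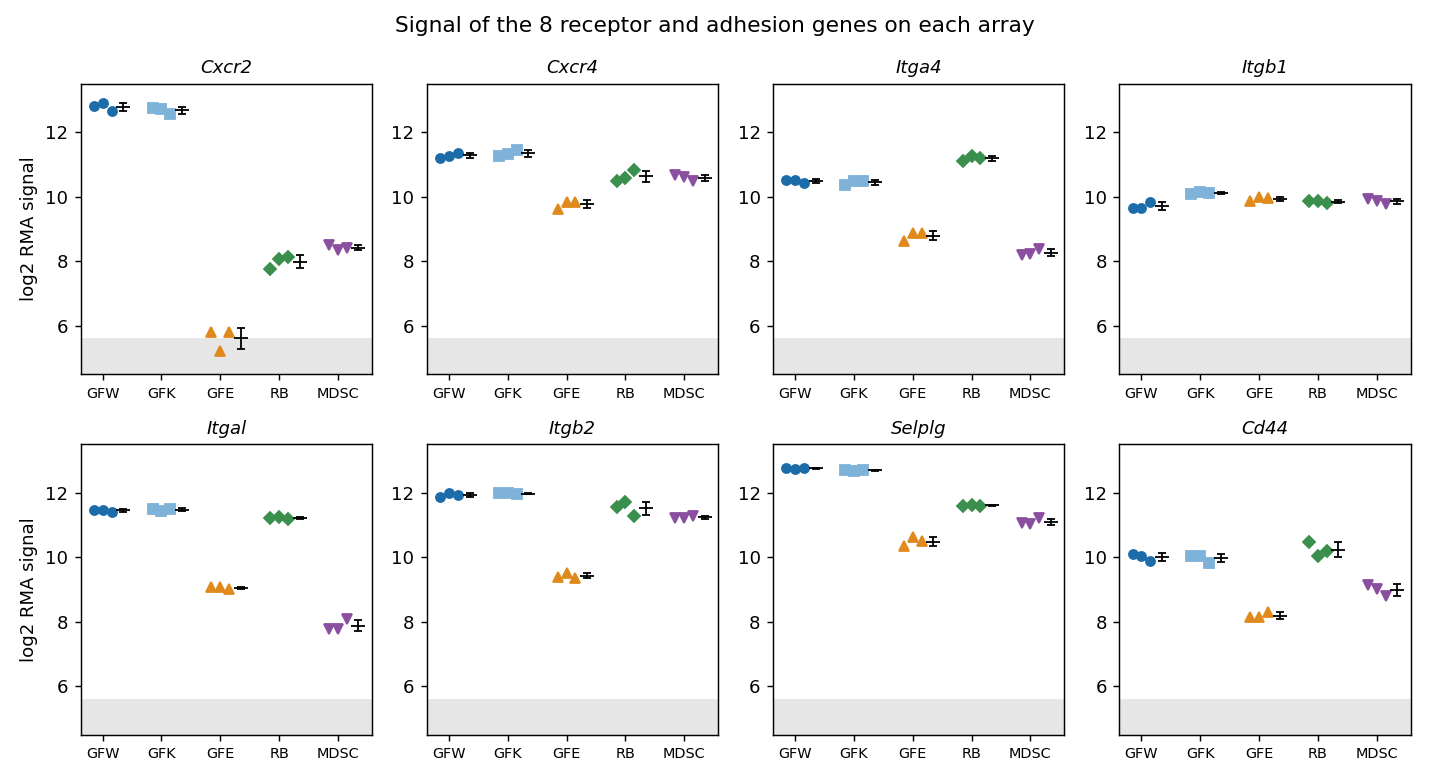
Log2 RMA signal (y axis) of each of the 8 genes on each array, by group (x axis), with the group mean and SD beside the points. The grey band marks signals under the highest array's limit for dim genes (5.58 log2). Cxcr2 spans 7.17 log2 between its highest and lowest group means and Itgb1 0.40, and the 3 cultured arrays (GFE) are lowest for 5 of the 8 genes.

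Taken within each array, the 2 chemokine receptors did not fall in step. The log2 difference of Cxcr2 minus Cxcr4 was lower than on GFW arrays by 5.66 after culture (SE 0.25), by 4.16 in RB (SE 0.13) and by 3.68 in MDSC (SE 0.12). In each of these comparisons the groups did not overlap, and the exact 2-sided permutation test gave p = 0.1, the smallest that 3 arrays against 3 allow, so it could not pass 0.05. On GFK arrays the change was -0.18 (SE 0.16, exact permutation p = 0.3) with overlapping groups. Within MDSC against RB the balance differed by 0.48 in the direction of Cxcr2 (SE 0.09, exact permutation p = 0.1). A change of balance shows that the genes moved unequally and not that either stayed still.

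The VLA-4 chains moved apart as well. Itga4, the alpha chain, was highest on RB arrays, at 11.09, 11.25 and 11.21 log2, followed by GFW at 10.51, 10.52 and 10.41 and GFK at 10.36, 10.48 and 10.49. The cultured arrays read 8.63, 8.86 and 8.87, and the MDSC arrays were lowest at 8.20, 8.22 and 8.39. All groups were separated from each other except GFW and GFK, which overlapped. Itga4 was the one gene of the 8 called higher in RB than in GFW (0.70 log2, 1.63-fold, SE 0.10, adjusted p = 3.54e-05). It fell by 1.69 on the log2 scale after culture (SE 0.10, adjusted p = 6.86e-10), and MDSC lay below GFW by 2.21 log2 (adjusted p = 5.28e-11) and below RB by 2.91 log2, or 7.54-fold (adjusted p = 3.43e-12). MDSC and the cultured cells, next to each other at the low end, differed by 0.52 log2 (adjusted p = 0.00073).

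Itgb1, the beta chain shared by VLA-4 and several other integrins, hardly varied. Its log2 signal was 9.64, 9.65 and 9.85 on GFW arrays, 9.87, 9.87 and 9.81 on RB arrays and 9.93, 9.87 and 9.76 on MDSC arrays. It was 9.85, 9.98 and 9.94 on GFE arrays and 10.07, 10.15 and 10.12 on GFK arrays. The GFK arrays were the highest, the GFW arrays held the lowest values, and MDSC overlapped with RB and GFE. Its range of group means was narrower than that of most genes: 12.2% of genes tested had a smaller one, and the median over all genes was 0.88 log2. None of the 4 pairs of neighbours in the order of its levels differed beyond the spread. Further apart in that order, GFK was called higher than RB by limma (0.27 log2, adjusted p = 0.0293), and MDSC lower than GFK (-0.26 log2, adjusted p = 0.0287). Of all genes, 50.5% and 60.9% were called in either direction in these comparisons.

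Against GFW, Itgb1 was called higher on the arrays labelled iNOS knockout (0.40 log2, 1.32-fold, SE 0.09, 95% interval 0.20 to 0.60, adjusted p = 0.0479). The 3 GFK arrays lay above the 3 GFW arrays, as did one group above the other for 16.2% of all genes in this comparison. The adjusted p ranged from 0.00736 to 0.240 over 14 alternatives, and the call was lost in 10 of them, among them the fit of the 6 arrays alone (adjusted p = 0.240) and, of the 6 fits that each left out an array, all but the one without GFW array 3. After culture Itgb1 was 0.21 log2 higher, which missed the threshold (adjusted p = 0.059), although the arrays were separated. Without GFW array 3 it passed (0.28 log2, adjusted p = 0.0283). RB (0.13 log2, adjusted p = 0.254) and MDSC (0.14 log2, adjusted p = 0.202) did not differ from GFW beyond the spread, with 95% intervals of -0.07 to 0.33 and -0.06 to 0.34.

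The balance of Itga4 to Itgb1 within an array was thus lower than on GFW arrays by 1.90 log2 after culture (SE 0.11) and by 2.35 in MDSC (SE 0.15), and higher by 0.57 in RB (SE 0.11). On GFK arrays it changed by -0.43 (SE 0.10). Groups did not overlap in these comparisons, and each exact permutation p was 0.1, the smallest possible. Itga4 can also pair with the chain of Itgb7, which homes lymphocytes and mast cell progenitors to the gut. Itgb7 was higher than in GFW by 2.71 log2 in RB (adjusted p = 2.41e-10) and by 0.82 on GFK arrays (adjusted p = 0.00384), and MDSC lay below RB by 3.06 log2 (adjusted p = 3.51e-11).

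The LFA-1 chains fell together after culture and separated in MDSC. Itgal, the alpha chain, read 11.48, 11.48 and 11.41 log2 on GFW arrays, 11.50, 11.43 and 11.50 on GFK arrays and 11.23, 11.25 and 11.20 on RB arrays. It read 9.07, 9.07 and 9.03 after culture and 7.77, 7.79 and 8.08 on MDSC arrays. GFW and GFK overlapped, RB lay just under them, the cultured arrays were far lower, and the MDSC arrays were lowest. Itgal fell by 2.40 on the log2 scale after culture (SE 0.10, 5.29-fold, adjusted p = 7.79e-12). MDSC lay below GFW by 3.57 log2, or 11.9-fold (adjusted p = 2e-13), below RB by 3.34 log2 (adjusted p = 6.34e-13) and below the cultured cells by 1.17 log2 (adjusted p = 9.33e-08). RB was 0.23 log2 under GFW with no overlap, which missed the threshold (adjusted p = 0.0573).

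Itgb2, the beta chain of LFA-1 that also pairs with the CD11b chain Itgam, kept a high signal in MDSC. It read 11.89, 12.00 and 11.93 log2 on GFW arrays, 11.99, 11.99 and 11.95 on GFK arrays and 11.55, 11.71 and 11.29 on RB arrays. It read 11.22, 11.21 and 11.29 on MDSC arrays and 9.40, 9.51 and 9.36 after culture. The cultured arrays were the only group far below the rest, and the MDSC arrays lay just under the lowest RB array. Itgb2 fell by 2.52 on the log2 scale after culture (SE 0.11, adjusted p = 1.2e-11), was 0.70 log2 lower in MDSC than in GFW (adjusted p = 3.31e-05) and 0.42 log2 lower in RB (adjusted p = 0.00396). MDSC lay 1.81 log2 above the cultured cells (adjusted p = 1.38e-09), the opposite sign to Itgal. Its difference of -0.28 log2 between MDSC and RB passed narrowly (adjusted p = 0.0411), and the call was lost under 8 of 13 alternatives, among them each fit without 1 MDSC array and each without RB array 1 or 2 (adjusted p up to 0.183).

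Within each array, the balance of Itgal to Itgb2 changed by 0.11 log2 after culture (SE 0.05, exact permutation p = 0.2) and by 0.19 in RB (SE 0.11, exact permutation p = 0.2) against GFW, with overlapping groups. In MDSC it lay below GFW by 2.87 log2 (SE 0.09), below RB by 3.06 (SE 0.13) and below the cultured cells by 2.99 (SE 0.08). None of these 3 comparisons had overlapping arrays, and each exact permutation p was 0.1, the smallest possible.

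**Figure D2:**
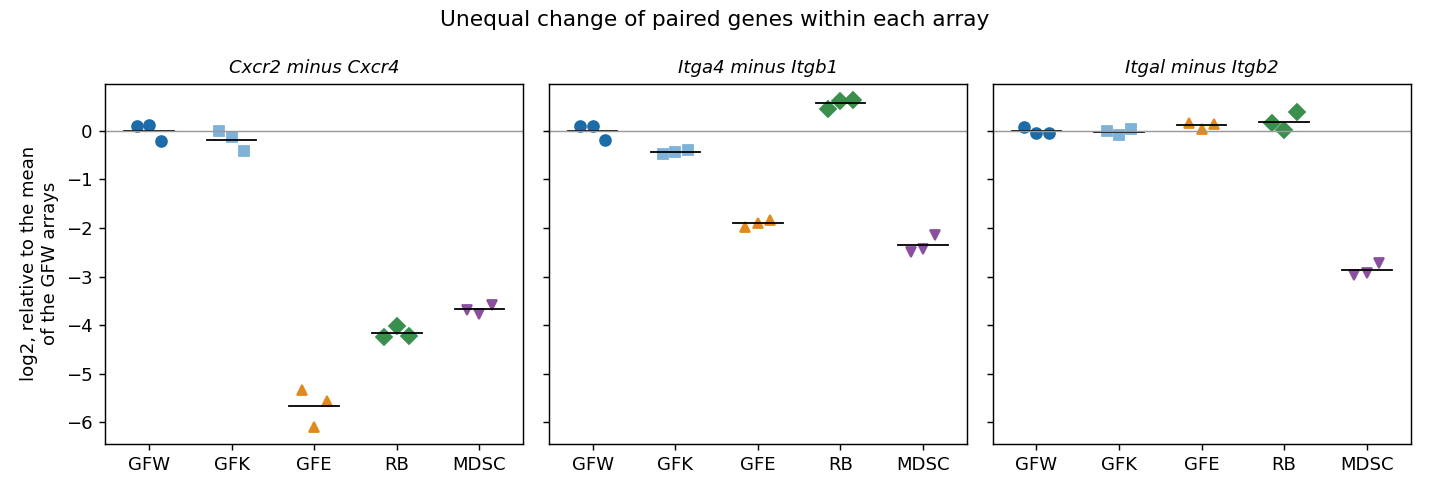
Within-array log2 difference of 3 gene pairs, each array as a point and each group mean as a line, relative to the mean of the GFW arrays (y axis), by group (x axis). Cxcr2 minus Cxcr4 is lowest after culture at -5.66. Itga4 minus Itgb1 is above GFW in RB and below it in GFE, MDSC and, at -0.43, GFK. Itgal minus Itgb2 departs from GFW mainly in MDSC at -2.87.

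Selplg, the gene of PSGL-1, stepped down from group to group. Its log2 signal was 12.78, 12.74 and 12.75 on GFW arrays and 12.71, 12.67 and 12.70 on GFK arrays. It was 11.61, 11.62 and 11.61 on RB arrays, 11.06, 11.04 and 11.21 on MDSC arrays and 10.35, 10.62 and 10.49 on GFE arrays. No groups overlapped, although GFK lay only 0.06 log2 below GFW and did not pass the test (95% interval -0.26 to 0.14, adjusted p = 0.877). Selplg fell by 2.27 on the log2 scale after culture (SE 0.09, 4.83-fold, adjusted p = 9.88e-12). It was lower than in GFW by 1.15 log2 in RB (adjusted p = 8.36e-08) and by 1.66 log2 in MDSC (adjusted p = 5.33e-10), and lower in MDSC than in RB by 0.51 log2 (adjusted p = 0.000309). A second probe set of Selplg gave the same signs, with differences of -2.85 log2 after culture, -1.60 in RB and -2.21 in MDSC against GFW. The remaining 7 genes had a single probe set of 1 symbol.

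Cd44, the hyaluronan receptor, was the gene whose RB and GFW arrays were closest after Itgb1. It read 10.11, 10.05 and 9.88 log2 on GFW arrays, 10.05, 10.04 and 9.84 on GFK arrays and 10.49, 10.04 and 10.19 on RB arrays. It read 9.15, 9.01 and 8.80 on MDSC arrays and 8.14, 8.15 and 8.31 after culture. GFW, GFK and RB overlapped, MDSC lay below all of them and the cultured arrays lay lowest. Cd44 fell by 1.82 on the log2 scale after culture (SE 0.13, 3.52-fold, adjusted p = 5.56e-09) and was 1.03 log2 lower in MDSC than in GFW (adjusted p = 4.8e-06). RB and GFW did not differ beyond the spread (0.22 log2, 95% interval -0.05 to 0.50, adjusted p = 0.164).

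In the cultured cells 7 of 8 genes were lower and none higher than in GFW, against 31.9% lower and 35.1% higher of all 14822 genes (67% in either direction), and with limma's unadjusted p under 0.05 Itgb1 was higher. All 8 were separated between these groups, against 74.2% of all genes. The median difference of the 8 genes was -2.04 log2, against -0.06 over all genes. The 7 that fell did so by 1.51 to 7.17 log2. Compared with RB, the cultured cells differed by -2.39 log2 for Itga4, -2.37 for Cxcr2, -2.17 for Itgal and -2.09 for Itgb2. Differences from RB were -2.04 for Cd44, -1.13 for Selplg, -0.87 for Cxcr4 and 0.08 for Itgb1. All but that of Itgb1 were called, as were 54.1% of all genes in either direction.

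In MDSC, 7 of 8 genes were lower than in GFW, against 30% of all genes, and none was higher by limma at either the adjusted or the unadjusted threshold, against 32.3% of all (62.2% in either direction). The median was -1.34 log2, against -0.08 over all genes, and 7 of 8 genes had no overlap, against 70.6%. RB against GFW gave 4 lower genes (26.5% of all genes), 1 higher gene (25.8% of all) and 6 of 8 without overlap (55.1% of all), with a median of -0.33 log2 against -0.06. These comparisons share the GFW arrays, so they are not independent of each other.

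MDSC against RB gave 5 lower genes, against 20.7% of all genes, and 1 higher gene, Cxcr2, against 27.4% (48.1% in either direction), with 6 of 8 separated against 55.4%. MDSC against the cultured cells gave 5 higher genes (16.6% of all genes) and 2 lower ones, Itga4 and Itgal (18.9% of all, and 35.5% in either direction), with 7 of 8 separated against 52.8%. On arrays labelled iNOS knockout, 1 of 8 genes, Itgb1, was higher than in GFW, against 1.3% of all genes (1.61% in either direction), and this count fell to 0 under 10 of 14 alternatives. None was lower by limma, adjusted or unadjusted, against 0.317% of all. Of the 8, 2 were separated, Itgb1 and Selplg, against 16.2% of all genes, and the median difference was -0.01 log2, as over all genes. Over the 8 genes, 32 pairs of neighbours in the order of levels were compared, and 18 of these differed beyond the spread. Pairs of neighbours outside the comparisons above were read against all genes too, of which 54.1% were called for GFE minus RB, 50.5% for GFK minus RB, 65.8% for GFE minus GFK and 60.9% for MDSC minus GFK.

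**Figure D3:**
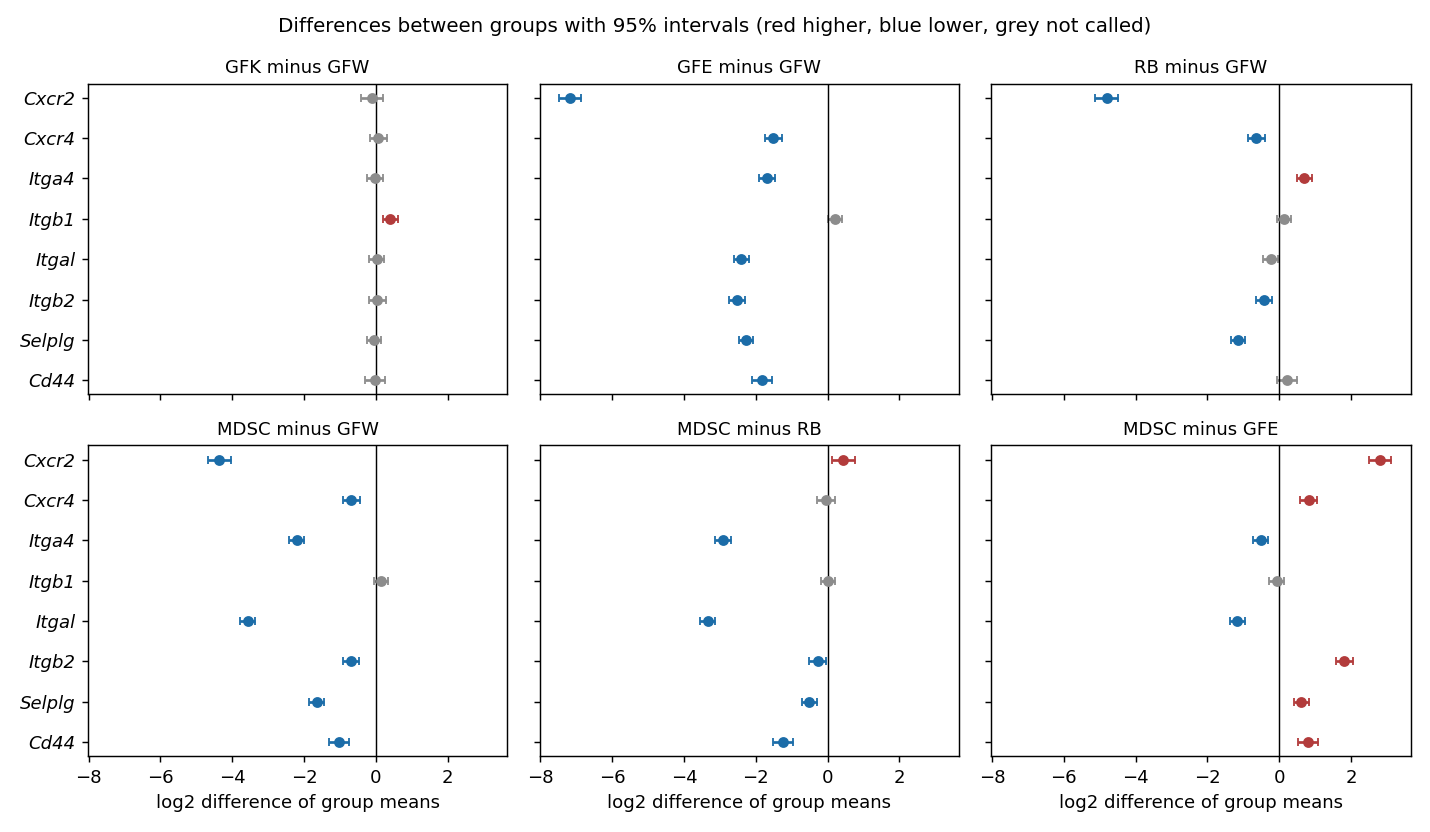
Log2 difference of group means (x axis) with 95% limma intervals for each of the 8 genes in 6 comparisons, red where called higher, blue where called lower and grey where not called. Culture (GFE minus GFW) shows 7 blue points, the largest at -7.17 for Cxcr2, and GFK minus GFW shows 7 grey points around 0 and Itgb1 at 0.40.

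Marker genes of cell types moved together with these differences, and their part in the results was not tested. The mean log2 signal of 10 neutrophil markers lay at 11.02 to 11.08 on GFW arrays and 11.02 to 11.13 on GFK arrays. It lay at 9.37 to 9.40 in RB, 9.56 to 9.65 in MDSC and 5.87 to 6.11 after culture. There all 10 markers were called lower than in GFW (31.9% of all genes), and Ly6g, Camp and Retnlg were dim on all arrays. This is also the order of Cxcr2, which marks mature neutrophils, but between MDSC and RB the markers were split. There 6 of 10 were higher in MDSC (27.4% of all genes) and 3 lower (20.7% of all). Ltf stood at 11.20 log2 in MDSC and 8.33 in RB. Retnlg stood at 4.12, a dim signal, in MDSC and 8.07 in RB, and Csf3r at 7.96 and 10.17. Progenitor markers went the other way after culture. Against GFW, 8 of 10 were higher (35.1% of all genes) and 1, Kit, was lower (-0.58 log2, 31.9% of all genes lower). List means were 9.58 to 9.71 after culture, 7.19 to 7.38 on GFW arrays and 5.95 to 6.26 on RB arrays. The sign for Kit depended on the reference, since it stood at 10.85 log2 after culture, 11.43 in GFW and 5.52 in RB.

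RB arrays stood out by monocyte markers, of which 7 of 8 were higher (25.8% of all genes) and 1 lower (26.5% of all) than in GFW. Their list means were 11.15 to 11.26 against 8.22 to 8.37. On the same arrays Itga4 was highest of all groups and 8 of 10 neutrophil markers were lower. MDSC arrays had monocyte list means of 8.26 to 8.36, near GFW. On them 3 of 10 neutrophil markers were higher (32.3% of all genes) and 6 lower (30% of all) than in GFW. Of the genes behind the Ly6C+CD11b+ label of MDSC, Ly6c2 stood at 12.69 ± 0.06 log2 and Ly6c1 was dim on all 3 arrays (5.15 ± 0.25). Itgam, at 10.32 ± 0.05, was 1.35 log2 lower than in GFW (adjusted p = 5.22e-09). On GFK arrays macrophage markers had list means of 8.29 to 8.61 against 7.57 to 7.81 on GFW arrays, with 3 of 7 higher. B cell markers had list means of up to 7.26 against 6.32 to 6.72, with no overlap and 1 of 4 higher. Of all genes, 1.3% were higher in this comparison. Itgb1 was also called higher on GFK arrays, a call lost under most alternatives. Whether these marker lists bear on Itgb1 was not tested. The cultured arrays had the lowest macrophage list means (5.99 to 6.20) with a mean Itgb1 of 9.93, above the 9.71 of GFW.

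**Figure D4:**
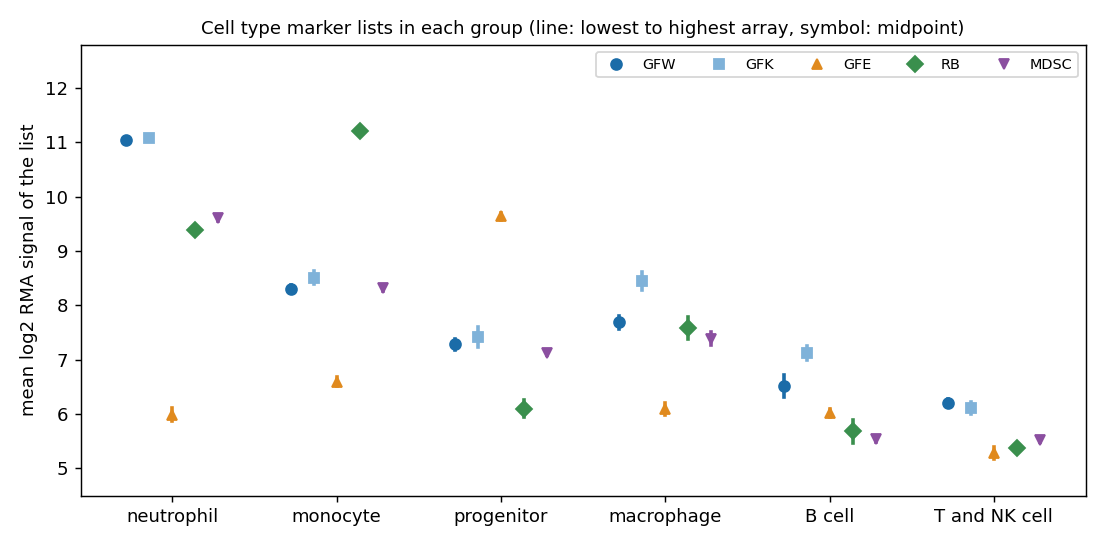
Mean log2 signal (y axis) of 6 cell type marker lists (x axis) in each group, drawn as the range from the lowest to the highest array with a symbol at its midpoint. Neutrophil markers are highest on GFW and GFK arrays and lowest after culture (5.87 to 6.11), progenitor markers are highest after culture (9.58 to 9.71), and monocyte markers are highest in RB (11.15 to 11.26).

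The ligands of these receptors were read in the same cells. The counts of this and the following lists stand beside the shares of all genes called higher and lower than in GFW, which were 35.1% and 31.9% after culture, 25.8% and 26.5% in RB, 32.3% and 30% in MDSC, and 1.3% and 0.317% on GFK arrays. Counts near those shares show nothing about a list. The lists were not counted for the cultured cells against RB, so their changes after culture hold against GFW alone. Of 14 ligand genes tested, 3 were higher and 7 lower after culture, with a median of -0.34 log2 against -0.06 over all genes. Mif, a cytokine that binds CXCR4 and CXCR2, was higher by 1.73 log2 (adjusted p = 9.79e-10), while the CXCR2 ligand Cxcl2 stood at -4.73 log2 (adjusted p = 2.59e-12) and the VLA-4 ligand Vcam1 was lower at -2.72 (adjusted p = 1.19e-07). MDSC resembled this in counts, with 2 higher and 8 lower than in GFW, Mif at 1.98 log2, Cxcl2 at -4.93 and Vcam1 at -2.62. In RB, 3 were higher and 6 lower, and Fn1, which encodes the VLA-4 ligand fibronectin, was higher by at least 6.75 log2 (adjusted p = 5.25e-15), its GFW signal being dim, while Selp, the gene of P-selectin, stood at -2.19. On GFK arrays 1 of 14 was called, the LFA-1 ligand Icam1 (0.81 log2, adjusted p = 0.0221).

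Among 13 other receptors of attraction and egress, 8 were lower and 3 higher after culture than in GFW, with a median of -2.30 log2. Against RB, signs could differ. Cx3cr1 stood at 9.66 log2 after culture, 7.77 in GFW and 10.60 in RB, and Kit at 10.85, 11.43 and 5.52. Ccr2 was lower after culture (5.88) than in both GFW (8.19) and RB (11.32). The formyl peptide receptor Fpr2 stood at -6.31 log2, the chemokine receptor Ccr1 at -6.08 or below, its cultured signal being dim, and Ccr7, the receptor that guides dendritic cells to lymph nodes, at 2.19. In RB, 7 were lower and 2 higher than in GFW: Ccr2 (3.13) and Cx3cr1 (2.83), both chemokine receptors of monocytes, rose, and Kit, the SCF receptor, and Cxcr1, the other receptor of CXCR2 ligands, stood at -5.92 and -3.85. In MDSC, 8 were lower and 2 higher, with Csf3r, the G-CSF receptor, at -4.53 and Cxcr1 at -4.00. No gene of this list was called by limma on GFK arrays, where 1 was higher and 1 lower at an unadjusted p under 0.05.

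The 13 tested genes of other integrin chains and L-selectin gave 3 higher and 3 lower after culture, 6 higher and 5 lower in RB, and 5 higher and 7 lower in MDSC. The partners of Itgb2 fell with it in cultured cells: Itgam stood at -3.73 log2 (adjusted p = 3.15e-14) and Itgax at -3.60. Itga6, a laminin receptor chain that pairs with Itgb1, rose by at least 3.18 log2 after culture (adjusted p = 2.39e-12). Of 13 genes of integrin activation, 9 were lower and 1 higher after culture, with Rasgrp2, the activator of Rap1, at -1.78 and Rassf5 at -1.54. In MDSC 8 were lower and 1 higher than in GFW, with the adaptor Fyb at -2.94, and against RB 10 were lower and none higher by limma, adjusted or unadjusted.

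Of 14 genes of proteases and their regulators tied to mobilisation or shedding, 7 were lower and 4 higher after culture, with Mmp9 at -6.53 log2 (adjusted p = 1.77e-15) and Mmp8 at -6.34, both metalloproteases of later granules. Of the primary granule proteases, Ctsg and Elane differed in direction there. Ctsg, which encodes cathepsin G, was 2.72 log2 higher (adjusted p = 2.75e-07) and Elane, which encodes neutrophil elastase, fell by 1.40 (adjusted p = 5.03e-05). In MDSC 6 were lower and 5 higher than in GFW: Elane was 4.46 log2 higher (adjusted p = 1.33e-10), Ctsg 4.21 higher, and Mmp9 stood at -6.22. RB also had a lower Mmp9 (-4.87), and there 4 were lower and 3 higher. Mmp9 stood at 5.67 log2 after culture, 7.33 in RB and 12.20 in GFW, and Mmp8 at 6.18, 10.46 and 12.53. The differences of both after culture were thus smaller against RB than against GFW. None was called on GFK arrays by limma, with 2 higher at an unadjusted p under 0.05.

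Of the 11 enzymes that build selectin ligands on PSGL-1 and CD44, 5 were higher and 5 lower after culture, with a median of -0.07 log2: the fucosyltransferase Fut7 rose by 0.94 log2 (adjusted p = 0.000407) and the sialyltransferase St3gal4 stood at -2.53 (adjusted p = 7.26e-11). In RB 5 were higher and 3 lower, and in MDSC 3 higher and 4 lower than in GFW. Of 18 genes of chemokine receptor signalling, 13 were lower and 3 higher after culture and 15 lower and 1 higher in MDSC. Grk5, a kinase that desensitises such receptors, stood at -2.73 and -1.39 log2, and Rgs1, which dampens their G proteins, was 1.89 higher after culture. On GFK arrays 2 of 18 were higher, Rgs1 (1.08) and Grk5 (0.84), and none was lower, with 4 lower at an unadjusted p under 0.05.

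**Figure D5:**
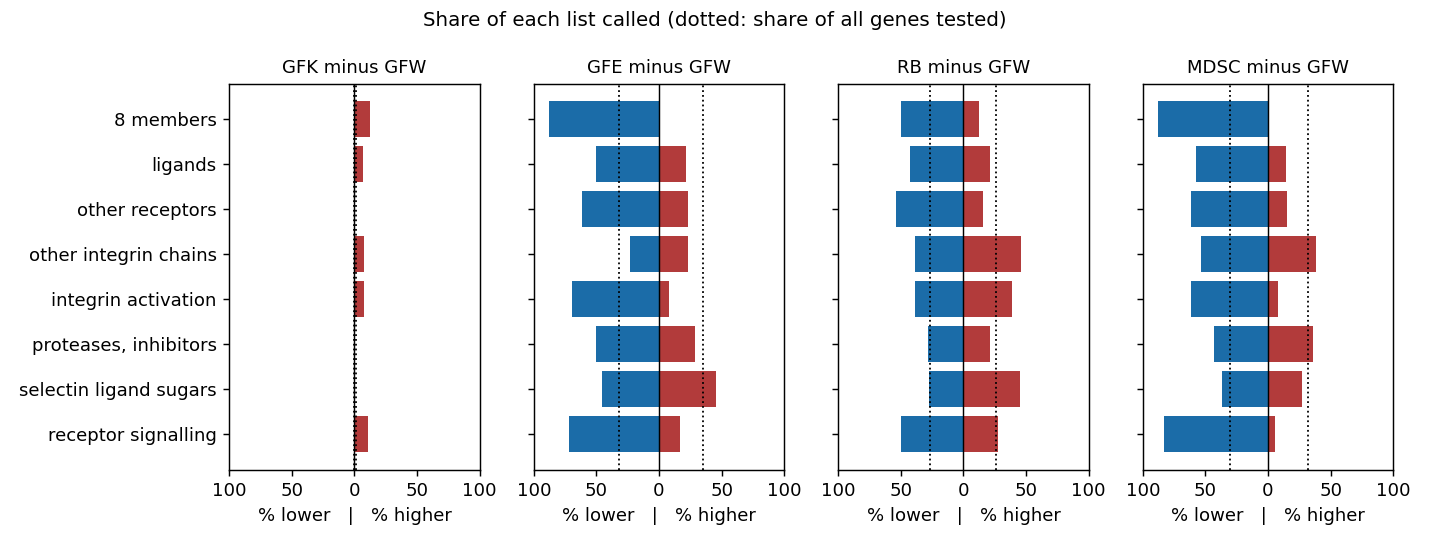
Share of each gene list called lower (blue, to the left) and higher (red, to the right), in percent on the x axis, for 4 comparisons, with dotted lines at the share of all genes tested. The 8 genes and the receptor signalling list lean most to lower calls after culture and in MDSC (7 of 8 genes in both, and 13 and 15 of 18).

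The genes whose signal ran most like that of each of the 8 over the 15 arrays were found by Pearson's r, given as a description since the arrays form 5 groups of 3. For Cxcr2 these were Casp6 (0.995), Mxd1 (0.994) and Grina (0.994), and Casp6 read 9.70 on GFW, 9.57 on GFK, 7.98 in MDSC, 7.73 in RB and 6.72 after culture. For Cxcr4 they were Slc16a3 (0.987), Plk2 and Hipk1 (both 0.981), for Itga4 Add3 (0.996), Rnase6 (0.992) and Apobec1 (0.991), and for Itgal Ssh2 (0.998), Ifi204 (0.995) and Atf7ip (0.989). Itgb2 ran most like Tcn2 (0.997), Gda (0.996) and Anxa2 (0.994), Selplg like Entpd1, Zyx (both 0.997) and Pnpla2 (0.996), and Cd44 like Fry (0.979), Fgd4 (0.978) and Fmnl1 (0.977). Itgb1 had the weakest likeness, with Hilpda at 0.884, Ppbp at 0.790 and Ripk3 at 0.760.

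Among the 8 genes themselves, the 21 pairs without Itgb1 had r between 0.50 and 0.97, and the 7 pairs with Itgb1 between -0.08 and 0.07. Cxcr2 ran closest to Selplg (0.97) and Cxcr4 (0.96), and Itga4 to Itgal (0.95). The chains of 1 integrin were not the closest pairs: r was 0.60 for Itgal with Itgb2 and -0.03 for Itga4 with Itgb1. All points share the arrays and their normalisation.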

How the data were processed

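Each of the 15 mouse samples was hybridised, from 6 ug of total RNA, to 1 array. The deposited values are log2 signals that the authors made with RMA in the oligo package, per the submitters' processing notes. RMA corrects background, normalises quantiles over arrays and summarises probe sets, so differences are relative to each array's whole distribution. No source used here names tool versions or a genome build for the array, and no array coordinates are printed. The 23521 probe sets with 1 gene symbol were used, and 1814 with several and 16010 with none were not. They cover 22180 genes, of which 1082 had several probe sets. Itga4 also has a probe set listed with another gene, which was not used. Genes above the 40th percentile of their array (5.34 to 5.58 log2) on at least 3 arrays were tested, which kept 14822 and removed 7358. Where the lower group's mean ranked under that percentile, a difference is given as a bound.

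A linear model of group means covered the 15 arrays (limma 3.58.1 under R 4.3.3, lmFit then eBayes), with 5.33 prior and 10 residual degrees of freedom. The 2-sided p-values were adjusted by Benjamini-Hochberg over every gene tested, and called means an adjusted p under 0.05. Data were simulated for GFK minus GFW alone, with few of the 14822 genes changed and independent noise for each gene. On them the fit recovered 91% of changes of 1 log2 and 100% of changes of 2 log2. It made 15 false calls. Effects shared by the genes of an array were not simulated, nor were comparisons in which many genes differ. Gene pairs within arrays were compared by exact permutation tests. Values and figures were prepared in Python 3.11.15 (pandas 2.3.3, numpy 2.4.6, matplotlib 3.10.9). Promoters are RefSeq's.

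Genes were named by rule: all 8 genes, per pathway list and comparison up to 2 higher and 2 lower called genes of largest difference (not all are printed), the 3 genes most correlated with each of the 8, and the marker genes and Nos2. The 8 genes and all lists were chosen with earlier results of these data known. Of 110 list entries, 102 had a probe set and 96 passed the filter. Alternatives were the 6 arrays compared alone, no filter or a filter at the 50th percentile, removal of each array's median, the mean of probe sets, eBayes with trend and robust settings, a replicate block, and leaving out each array. The fit of the 9 arrays that share a title prefix was chosen after seeing the data.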

Additional observations from a re-analysis of the deposited data

How the results depend on the processing

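Of 48 differences of the 8 genes in 6 comparisons, 33 were called, and 30 of these kept their direction and call under every alternative run. The exceptions were Itgb1 in GFK minus GFW and Cxcr2 and Itgb2 in MDSC minus RB, and none of the 33 reversed. Of 640 refits, 605 kept direction and side of the threshold. The 3 arrays per group limit what can be called, and signals near the dim limit bound the size of differences.

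The count of the 8 genes called higher in GFK minus GFW fell from 1 to 0 in the fit of the 6 arrays alone, without the filter, with array medians removed, with the replicate block and with the 9 arrays sharing a title prefix (Itgb1 adjusted p = 0.240, 0.0766, 0.0613, 0.0822 and 0.0993), and lay between 0 and 1 when an array was left out. In GFE minus GFW the count higher rose from 0 to 1, by Itgb1, with array medians removed (adjusted p = 0.00768), with trend and robust settings (0.0228) and, in the range of 0 to 1, without GFW array 3 (0.0283). In MDSC minus GFW it rose from 0 to 1 with array medians removed (Itgb1 0.26 log2, adjusted p = 0.0383), and in MDSC minus RB it lay between 0 and 1 when an array was left out. Itgal in RB minus GFW passed with trend and robust settings (adjusted p = 0.0174).

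Over all genes, GFK minus GFW gave 192 higher and 47 lower calls, 72 and 2 with the 6 arrays alone, 102 to 150 and 27 to 42 with an array left out, and 30, 29 and 79 lower without the filter, with array medians removed and with trend and robust settings. Fewer arrays leave fewer degrees of freedom, and for the other settings the cause was not tested. Removing array medians shifted the median of all genes by 0.14 log2 in GFE minus GFW and 0.12 in MDSC minus GFW, and moved the share of higher among called genes from 52.3% to 63.8% and from 51.8% to 63.2%.

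Differences that changed sign were all uncalled. In MDSC minus RB, Cxcr4 went to 0.016 log2 with array medians removed. With an array left out, differences ranged from -0.11 to 0.052 for Cxcr4 and from -0.029 to 0.055 for Itgb1 in MDSC minus RB, and from -0.067 to 0.0078 for Itga4, from -0.0039 to 0.042 for Itgal and from -0.10 to 0.032 for Cd44 in GFK minus GFW.

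Deviations of arrays with the same replicate number were at most weakly correlated (r between -0.091 and 0.043 over the 6 comparisons). All 6 arrays correlated best with their own number in GFK minus GFW and in RB minus GFW. In GFE minus GFW 4 of 6 did, in MDSC minus RB and MDSC minus GFE 2 of 6, and in MDSC minus GFW 0 of 6. With so few arrays in a group, these correlations cannot decide whether the numbers pair the samples. With the replicate block GFK minus GFW gave 160 higher and 42 lower calls, and no other call of the 8 genes changed.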
